A study of Rattus norvegicus with 39 samples.

Results

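Rats restricted throughout life (CR) were compared at 28 months with rats restricted until 12 months and then given free access to food (CR>AL). The comparison used 6 of the 39 cortex libraries of the series, 3 pools of CR (pools 16, 17 and 18) and 3 of CR>AL (pools 25, 26 and 27), chosen by their diet and age labels alone. Each pool held cerebral cortex RNA of 2 male BN rats, all fed ad libitum (AL) until 2 months of age. From then on, restricted animals received 55% of the food that controls ate. Neither group received α-lipoic acid (LA), a supplement of 1.5 g per kg of diet given to other cohorts. The pooled animals are the replicates (n = 3 per group), so the spread between single rats was not measured. Reads on genes ranged from 4218382 to 5614861 in CR and from 3241339 to 4562089 in CR>AL. Reads that were not aligned made up 38.1% to 40.7% in CR and 40.05% to 40.68% in CR>AL. Of the aligned reads, 80.8% to 81.2% lay on no gene in CR and 82.1% to 83.0% in CR>AL. These shares did not overlap between the groups, and their part in the results below was not tested. Any pair of pools within a group differed by more than sampling noise, since chi-square divided by its degrees of freedom was between 3.74 and 8.06.

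Caloric restriction lowers energy intake without malnutrition and extends lifespan in many rodent strains, and in rodents it is also known to lower body temperature. Refeeding returns the energy supply to that of free-fed animals. A contrast of refed with restricted animals of the same age holds both current feeding and the total length of restriction, which cannot be told apart here. Among the genes known to respond to temperature are Rbm3 and Cirbp, which encode small RNA-binding proteins that are induced by mild cooling and act on the stability and translation of messenger RNA. Body temperature was not part of these data. In bulk tissue, a lower level can come from fewer cells of a type or from less RNA per cell, and these cannot be told apart here.

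The question was which genes differed in the cortex after refeeding from 12 to 28 months of age. Of 17230 genes tested, 20 passed an adjusted p of 0.05 (0.116%), and the pools of the groups did not overlap for any of them. Of these, 17 were lower in CR>AL (0.0987% of all genes tested) and 3 were higher. Of the 20, 8 had a name, and all 8 were lower in CR>AL: Rbm3, Cirbp, Gpd1, Sars, Ccdc47, Atp5c1, ATP8 and Rn28s. An unadjusted p under 0.05 was reached by 926 genes (5.37%), 564 lower and 362 higher, and the pools did not overlap for 1848 genes (10.7%). The median log2 fold change over all genes was -0.0048. When all 39 libraries shared one estimate of the spread, 0 genes passed the edgeR quasi-likelihood test. Leaving out one pool at a time left between 3 genes (without CR pool 18) and 36 genes (without CR pool 16). The other counts were 34 without CR pool 17, 4 without CR>AL pool 25, 7 without pool 26 and 13 without pool 27.

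**Figure D1:**
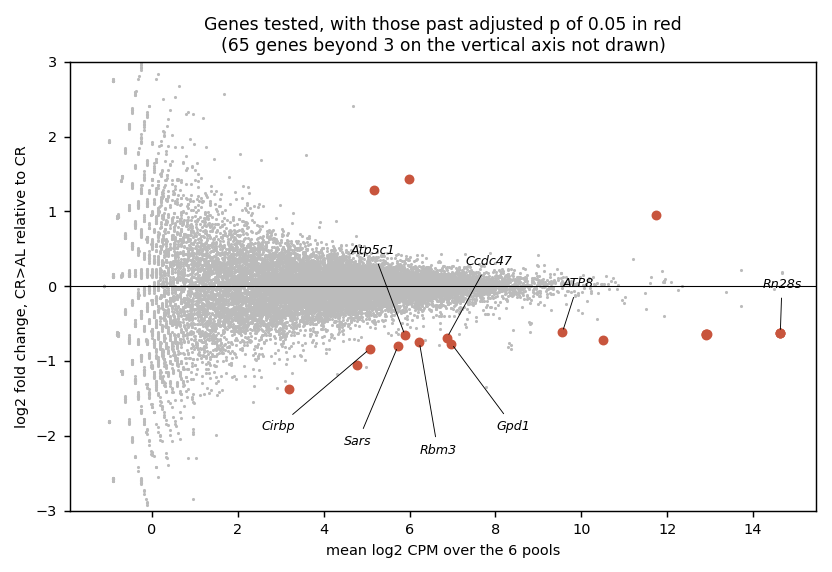
Log2 fold change of CR>AL relative to CR (vertical axis) against mean log2 CPM over the 6 pools (horizontal axis) for the genes tested, each a point. The 20 genes past the test are red, with 17 below 0 and 3 above it, and 65 genes beyond 3 on the vertical axis are not drawn.

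Among the genes that fell were the cold-inducible Rbm3 and Cirbp. The bases before their starts are shown because the pair is known to respond to cooling together. RefSeq entries of the GRCr8 assembly held promoters for 5 of the 8 named genes. The Rbm3 window lies at chrX:17020655-17020904 on the plus strand and the Cirbp window at chr7:10189476-10189725 on the minus strand, and each holds the 250 bases before the annotated start. Capitals mark CCAAT on either strand, and TCCCCGCC, the letters described for cold response in the Cirbp promoter.
Rbm3: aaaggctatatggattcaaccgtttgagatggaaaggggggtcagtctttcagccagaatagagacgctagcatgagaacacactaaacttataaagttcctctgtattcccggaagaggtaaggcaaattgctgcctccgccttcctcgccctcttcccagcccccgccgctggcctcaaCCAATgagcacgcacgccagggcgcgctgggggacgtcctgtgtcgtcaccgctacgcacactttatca
Cirbp: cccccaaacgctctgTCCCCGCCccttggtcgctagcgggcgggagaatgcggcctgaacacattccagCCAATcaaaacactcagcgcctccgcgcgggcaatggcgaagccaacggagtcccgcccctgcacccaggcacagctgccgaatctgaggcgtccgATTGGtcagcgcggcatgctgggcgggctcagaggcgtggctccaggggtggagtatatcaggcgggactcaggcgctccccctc
TCCCCGCC stood 235 bases before the start of Cirbp and was not found in the Rbm3 window. It occurs on either strand in 4.22% of 33469 promoter windows of the same length. CCAAT stood 69 bases before the start of Rbm3, and at 181 and 85 bases before that of Cirbp, the latter on the opposite strand. CCAAT is found in 11385 of the windows. A match of letters is not evidence of binding.

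Rbm3 was measured at 98.3, 101 and 90.5 CPM (counts scaled to library size) in the CR pools and at 50.6, 68.3 and 53.9 CPM in the CR>AL pools. All 3 refed pools lay below all 3 restricted pools. The means were 96.4 ± 5.30 CPM in CR and 57.6 ± 9.41 CPM in CR>AL (SD, n = 3), a log2 fold change of -0.75 with a standard error of 0.13 (adjusted p = 0.0162). Without CR pool 18 or CR>AL pool 25 or 27, Rbm3 no longer passed (adjusted p up to 0.181), while its log2 fold change stayed between -0.89 and -0.66.

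Cirbp stood at 46.3, 44.8 and 40.2 CPM in CR and at 25.8, 22.4 and 25.7 CPM in CR>AL. The groups did not overlap, and the refed mean of 24.6 ± 1.91 CPM compared with 43.8 ± 3.16 CPM under restriction (SD, n = 3). The log2 fold change was -0.84 with a standard error of 0.15 (adjusted p = 0.0245). It was between -0.90 and -0.77 when single pools were left out, and missed the threshold in 4 of those 6 fits. With all 39 libraries in one fit, the adjusted p was 0.216 for Rbm3 and 0.11 for Cirbp.

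**Figure D2:**
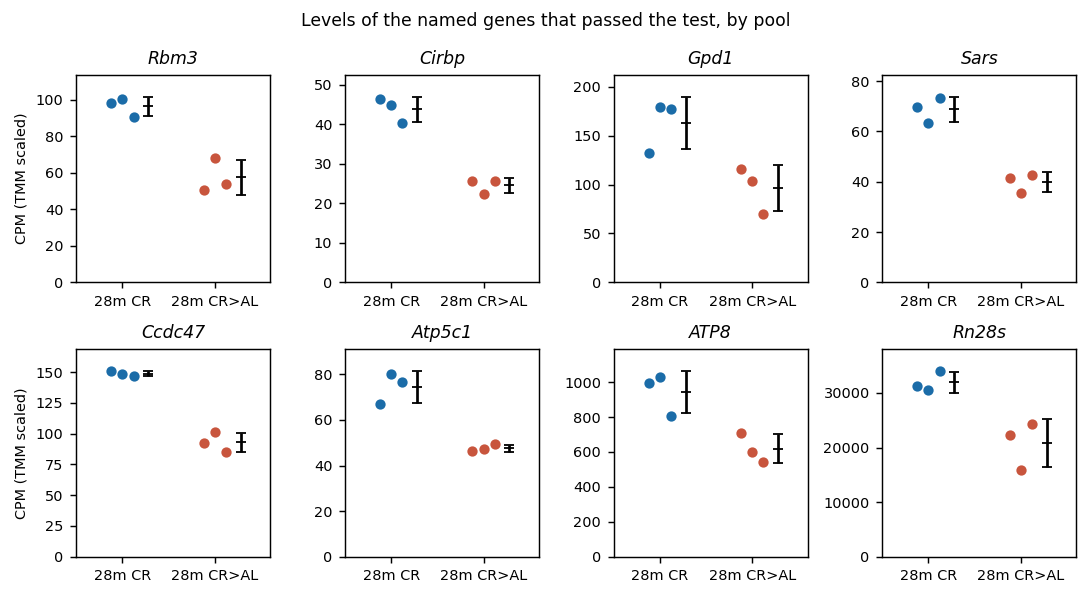
Level in CPM (vertical axes, from 0) of the 8 named genes past the test, with a point for each pool, 28m CR in blue and 28m CR>AL in red, and the mean with its SD in black beside them. In each panel, all 3 CR>AL pools lie below all 3 CR pools.

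Of the genes of metabolism and protein synthesis, Gpd1, Sars, Atp5c1 and ATP8 fell. Gpd1, the cytosolic glycerol phosphate dehydrogenase that links glycolysis to lipid synthesis, was at 132, 180 and 177 CPM in CR and at 116, 103 and 70.0 CPM in CR>AL. CR pool 16 and CR>AL pool 25 came closest to each other, and the log2 fold change was -0.77 with a standard error of 0.15 (adjusted p = 0.0452). Gpd1 missed the threshold in 5 of the 6 fits without a pool.

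Sars, the seryl-tRNA synthetase that charges transfer RNA with serine, was at 69.7, 63.5 and 73.3 CPM in CR and at 41.6, 35.5 and 42.6 CPM in CR>AL. The log2 fold change was -0.80 with a standard error of 0.13 (adjusted p = 0.0115). Ccdc47, a membrane protein of the endoplasmic reticulum, was at 151, 149 and 147 CPM in CR and at 92.5, 101 and 85.4 CPM in CR>AL. The CR pools of Ccdc47 lay within an SD of 1.82 CPM, and the log2 fold change was -0.69 with a standard error of 0.11 (adjusted p = 0.00927). Without a single pool, both Sars and Ccdc47 missed the threshold in 3 of 6 fits.

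Atp5c1, the nuclear gene for the gamma subunit of mitochondrial ATP synthase, was at 66.8, 80.2 and 76.5 CPM in CR and at 46.3, 47.2 and 49.3 CPM in CR>AL. ATP8, a subunit of the same enzyme that mitochondrial DNA encodes, was at 996, 1028 and 807 CPM in CR and at 708, 602 and 545 CPM in CR>AL. Their log2 fold changes were -0.66 and -0.62 (adjusted p = 0.0419 for each), and both missed the threshold in 5 of 6 fits without a pool. Across 48 named genes of the respiratory chain and ATP synthase, a group chosen after the values were seen, 27 were higher and 21 lower, with a median log2 fold change of 0.03, and these 2 were the only ones past the test. Ndufa13, a subunit of the first complex, had a log2 fold change of -1.27 (adjusted p = 0.127), and the mitochondrially encoded COX2 one of -0.30 (adjusted p = 0.708). Of 66 named genes for ribosomal proteins, chosen in the same way, 0 passed the test (unadjusted p under 0.05 in 2).

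Rn28s, an RNA of the large ribosomal subunit that remained after ribosomal RNA depletion, was at 31308, 30441 and 33984 CPM in CR and at 22309, 15850 and 24260 CPM in CR>AL. Its log2 fold change was -0.63 with a standard error of 0.13 (adjusted p = 0.0452). It missed the threshold in 3 of 6 fits without a pool (adjusted p up to 0.387, log2 fold change from -0.75 to -0.46). A further 6 identifiers without a name kept a nearly fixed ratio to Rn28s over all 39 libraries, with an SD of the log2 ratio under 0.1, and all 6 passed the test too, so that 7 of the 17 identifiers that fell are not independent of each other. The 7 identifiers took 12.4% to 13.2% of gene reads in CR and 6.73% to 9.60% in CR>AL. With at least 10 counts required in every library, none of the 7 passed (adjusted p = 0.295 for Rn28s). When they were left out, 10 genes passed. Rbm3, Cirbp, Sars, Ccdc47 and ATP8 were among these 10, and Gpd1 and Atp5c1 were not (adjusted p = 0.0599 and 0.0557).

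The level of Rn28s moved with the contrast. In a fit of all 39 libraries with the log2 CPM of Rn28s as a covariate, chosen after seeing the data, the log2 fold change was -0.79 for Rbm3, -0.78 for Cirbp and -0.74 for Sars. It was -0.55 for Ccdc47, -0.51 for Atp5c1 and -0.47 for ATP8. No gene passed the quasi-likelihood test in that fit (0 genes, and Rbm3 had an adjusted p of 0.13).

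The 3 genes that rose had no name in the sources used here. ENSRNOG00000049138 was at 48.9, 27.6 and 29.6 CPM in CR and at 103, 74.2 and 110 CPM in CR>AL, a 2.71-fold higher mean and a log2 fold change of 1.43 with a standard error of 0.18 (adjusted p = 0.00128). ENSRNOG00000046170 was at 26.9, 17.9 and 19.7 CPM in CR and at 55.6, 42.6 and 61.1 CPM in CR>AL (log2 fold change 1.29, adjusted p = 0.00191). Both passed in all 6 fits without a pool. They ranked the 6 pools in the same order, and whether they are independent of each other was not tested. The third, at 2661, 2060 and 2455 CPM in CR and 4384, 3467 and 6117 CPM in CR>AL (log2 fold change 0.95, adjusted p = 0.00772), missed the threshold without CR pool 18 (adjusted p = 0.0574) and with DESeq2 (adjusted p = 0.0897). Of the unnamed genes that fell, ENSRNOG00000031766 also passed in all 6, from 1907, 1877 and 1782 CPM in CR to 1242, 1060 and 1109 CPM in CR>AL (log2 fold change -0.72, adjusted p = 0.00262).

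No named gene passed the test in the upward direction. The 5 with the smallest unadjusted p were Pigq, Lmbr1l, Srrm2, Chd7 and Pttg1ip, with log2 fold changes from 0.42 to 0.79 and adjusted p from 0.203 to 0.676. Chd7, a chromatin remodeller, was at 21.1, 23.02 and 18.6 CPM in CR and at 31.04, 26.8 and 35.4 CPM in CR>AL. Srrm2, a large protein of the splicing machinery, was at 537, 432 and 381 CPM in CR and at 650, 582 and 586 CPM in CR>AL. Just beyond the threshold on the lower side were Asrgl1, Sdf4 and Ppp1r9b (adjusted p = 0.0658, 0.0765 and 0.0781).

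Gene lists for diet, metabolism and brain cell types were then examined. Names were available only for genes that the study had found to differ in some comparison of these libraries, so the members of each list are a selection from these data. In 33 of the 34 lists at least 1 member was tested, 160 genes in all, and 2 of them passed the test, Rn28s and ATP8. An unadjusted p under 0.05 was reached by 19 (11.9%), 14 lower and 5 higher. All named genes, from which the members come, had 146 of 1669 at that level (8.75%), and all genes tested had 5.37%. The median log2 fold change over the members was -0.0062.

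Of 8 circadian clock genes, 7 were lower in CR>AL and 0 passed the test (median log2 fold change -0.24, unadjusted p under 0.05 in 2). Dbp, an output regulator of the clock, was at 85.2, 62.3 and 69.8 CPM in CR and at 54.0, 54.4 and 53.6 CPM in CR>AL (adjusted p = 0.603). Bhlhe41, a repressor in the same loop, had a log2 fold change of -0.54 (adjusted p = 0.835). All 6 genes of insulin, IGF and mTOR signalling had positive log2 fold changes (median 0.16) and 0 passed, with Rheb, the activator of mTOR, at 0.43 (adjusted p = 0.79). Of 8 genes of DNA and histone methylation, 7 were higher (median 0.31) and 0 passed, with Setd1b, a histone methyltransferase, at 0.92 (adjusted p = 0.708).

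Of 5 genes known to respond to glucocorticoids, 0 passed. Sult1a1, a sulfotransferase, was at 19.4, 21.8 and 22.8 CPM in CR and at 10.6, 14.1 and 11.0 CPM in CR>AL (log2 fold change -0.84, adjusted p = 0.178), and Tgm2, a transglutaminase, had a log2 fold change of 0.58 (adjusted p = 0.865). Of 16 antioxidant genes, 8 were higher and 8 lower with a median of 0.0076, and Hmox2, the constitutive heme oxygenase, stood at -0.45 (adjusted p = 0.605). Among 5 genes of MHC class II, 2 were higher and 3 lower, with a median log2 fold change of -0.0086, and 0 passed. Cd74, the invariant chain, had the smallest unadjusted p of the 5. It was at 75.8, 82.1 and 93.0 CPM in CR and at 93.1, 54.6 and 45.7 CPM in CR>AL, so that the groups overlapped (adjusted p = 0.901). The 6 heat shock identifiers, 11 activity-regulated early genes, 7 cholesterol synthesis genes, 10 genes of the synaptic vesicle cycle and 10 identifiers of neuropeptides and granins held 0 genes past the test. Their medians lay between -0.05 and 0.10, and an unadjusted p under 0.05 was reached by Fosb alone, an early response gene (log2 fold change 0.70, adjusted p = 0.853). The other 10 early genes had negative log2 fold changes.

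**Figure D3:**
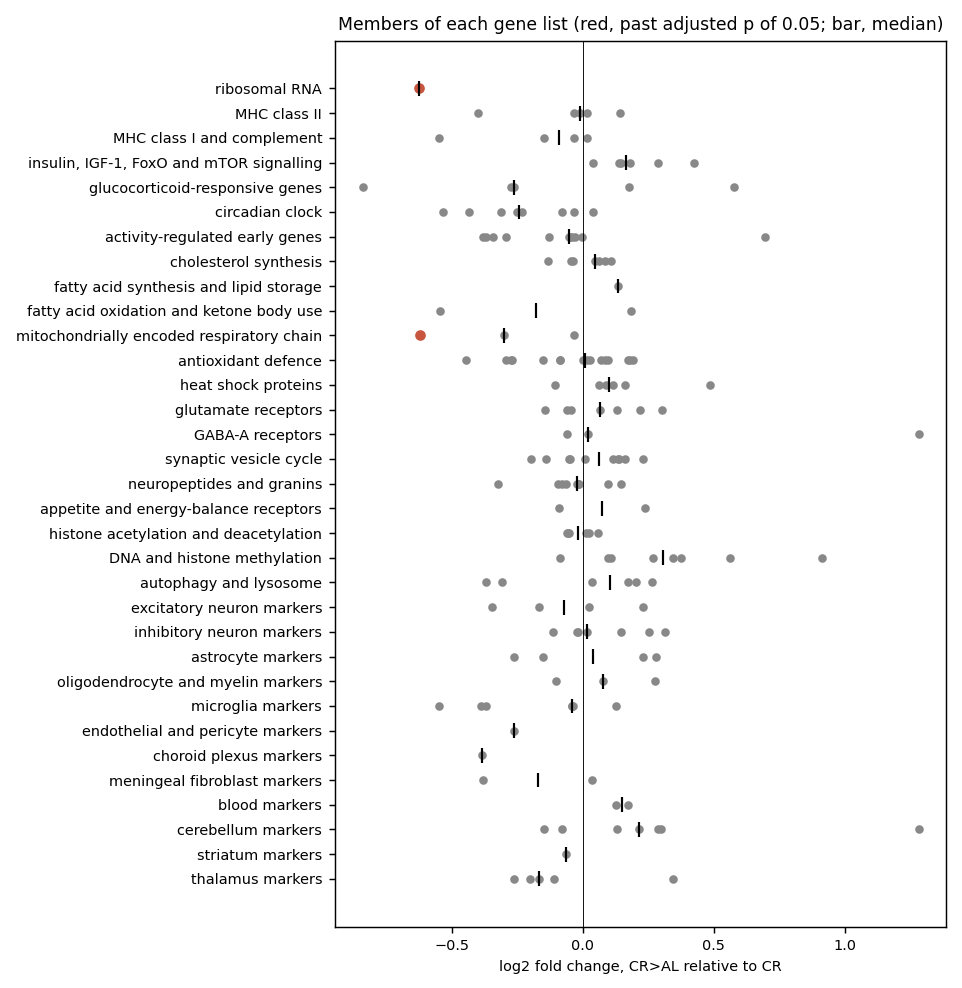
Log2 fold change of CR>AL relative to CR (horizontal axis) for each tested member of the gene lists (vertical axis), with the median of a list as a black bar. The 2 members past the test, Rn28s and ATP8, are red, and the other members are grey.

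Markers of cell types in the cortex showed no gene past the test. The 7 microglia markers had a median log2 fold change of -0.04. C1qc, a complement subunit, had a log2 fold change of -0.55 (adjusted p = 0.699) and Ctss, a lysosomal protease, one of -0.37 (adjusted p = 0.539). The summed level of the 7 was 340 to 406 CPM in CR and 313 to 319 CPM in CR>AL, so that the sums did not overlap. Ctss carried most of this, with means of 259 CPM in CR and 202 CPM in CR>AL, and the other 6 markers summed to 109 to 139 CPM and 111 to 119 CPM, which overlapped. The summed astrocyte markers (4 genes) ranged from 1073 to 1649 CPM in CR and from 1476 to 1576 CPM in CR>AL, and the oligodendrocyte markers (3 genes) from 425 to 647 and from 458 to 603 CPM. The cerebellum markers (7 genes) summed to 78.0 to 79.0 CPM in CR and 85.4 to 89.4 CPM in CR>AL, and these sums did not overlap. Of the 7 markers, 5 were higher and 2 lower. The pools were apart for 0 of them, and 0 had an unadjusted p under 0.05. The part of these sums in other results was not tested. For thalamus markers (5 genes) the sums were 64.4 to 254 CPM in CR and 103 to 183 CPM in CR>AL.

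The same feeding contrast was available in rats that received LA from 12 months on, 3 pools restricted throughout (CR>CR+LA) and 3 refed (CR>AL+LA), which share no pool with the comparison above. There 0 genes passed the edgeR quasi-likelihood test, 2 passed edgeR's exact test, and 986 had an unadjusted p under 0.05 (5.72%). Rbm3 was at 83.4, 69.9 and 62.4 CPM in CR>CR+LA and at 91.1, 51.3 and 69.9 CPM in CR>AL+LA, and the groups overlapped. Its log2 fold change was -0.03 (adjusted p = 0.993). Cirbp was at 41.4, 39.3 and 28.7 CPM in CR>CR+LA and at 38.7, 33.7 and 32.2 CPM in CR>AL+LA (log2 fold change -0.06, adjusted p = 0.976). Gpd1 was the only gene among the 20 that was lower here too with an unadjusted p under 0.05, with a log2 fold change of -0.53 (unadjusted p = 0.00456, adjusted p = 0.808). Its pools overlapped, at 114, 125 and 168 CPM in CR>CR+LA and 68.0, 83.0 and 133 CPM in CR>AL+LA.

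**Figure D4:**
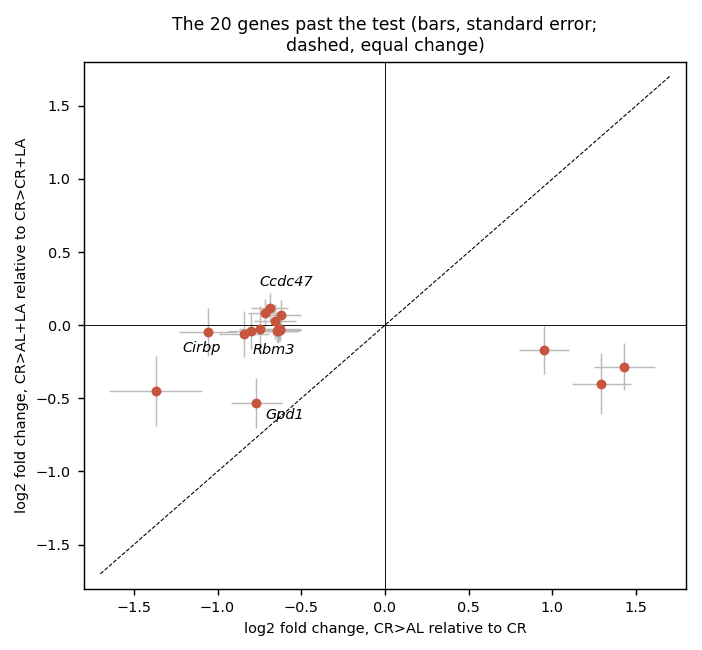
Log2 fold change of the 20 genes past the test in CR>AL relative to CR (horizontal axis) against that of CR>AL+LA relative to CR>CR+LA (vertical axis), with standard errors as grey bars and equal change as a dashed line. Most points lie near 0 on the vertical axis, and Gpd1 lies nearest to the dashed line.

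Whether the refeeding difference itself depended on LA was tested as an interaction over these 12 pools. Of 17230 genes, 4 passed, and all 4 were among the 20 above: Ccdc47 and ENSRNOG00000031766, with log2 fold changes of 0.12 and 0.08 on refeeding with LA, and ENSRNOG00000049138 and ENSRNOG00000046170, with -0.28 and -0.40. These genes share the CR and CR>AL pools with the first comparison, so the tests are not independent. For Ccdc47 the difference of the log2 fold changes was 0.81 with a standard error of 0.14 (adjusted p = 0.0255), from levels of 134, 144 and 144 CPM in CR>CR+LA and 150, 158 and 147 CPM in CR>AL+LA. For Rbm3 and Cirbp the differences were 0.72 and 0.78 and did not pass (adjusted p = 0.783 and 0.427). For Gpd1 the difference was 0.24 with a standard error of 0.28 (adjusted p = 0.945). With all 39 libraries in one fit, 0 genes passed this test.

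The levels of Rbm3 in the other groups were then set beside those of the comparison. Under restriction they were 102, 111 and 82.4 CPM at 12 months, the age at which the diets were switched, and 105, 101 and 101 CPM in rats restricted only from 12 months on (AL>CR). In rats fed AL they were 57.5, 57.1 and 45.05 CPM at 6 months and 44.7, 42.7 and 44.6 CPM at 12 months. At 28 months of AL feeding they were 118, 81.5 and 88.4 CPM, with 1 pool above all CR pools and 2 below them. The refed pools of CR>AL lay below these AL pools of their own age. They overlapped the other fed groups of 28 months, which ranged from 56.3 to 68.5 CPM in AL+LA and from 51.3 to 91.1 CPM in CR>AL+LA.

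Over the 33 libraries outside the comparison, rats fed AL when sampled were set against restricted rats in 5 strata of age and history, a contrast chosen after these levels had been seen. Rbm3 was lower in fed rats, with a log2 fold change of -0.49 and a standard error of 0.08 (adjusted p = 4.24e-05), among 1095 genes past the test (6.36%). The split was chosen from these same levels, so this p-value is no independent test of Rbm3. The strata were not alike. At 28 months, AL (81.5 to 118 CPM) overlapped AL>CR (101 to 105 CPM), and CR>AL+LA overlapped CR>CR+LA. Fed pools lay below restricted pools at 6 months, at 12 months, and in AL+LA against AL+LA>CR. A narrower set of 18 libraries, run first, left out the cohorts fed AL throughout life with no supplement, CR at 6 months and AL>CR. There 7 genes passed and Rbm3 was among them (log2 fold change -0.54, adjusted p = 0.0241). At 12 months it set CR, with Rbm3 at 82.4 to 111 CPM, against AL+LA alone, at 41.0 to 60.6 CPM. Feeding and LA cannot be told apart in that stratum. In the 33 libraries, AL+LA at 12 months was likewise part of the fed side. Cirbp had a log2 fold change of -0.15 over the 33 libraries (adjusted p = 0.303) and Gpd1 one of -0.33 (adjusted p = 0.0911). Of the 20 genes, 7 had the same direction over the 33 libraries as in CR>AL against CR, 5 of them with an unadjusted p under 0.05. Rn28s and the 6 identifiers tied to it, which are not independent, all had the opposite direction. The 9 libraries of rats fed AL throughout life with no supplement had 27.5% to 36.1% of reads not aligned, against 34.1% to 43.2% in the other 30, and the part of this in the contrast was not tested. In AL at 28 months the cerebellum markers summed to 82.6 to 1195 CPM, against 85.4 to 89.4 CPM in CR>AL. What these sums contribute to the contrast, or to the levels given for AL at 28 months, was not tested.

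**Figure D5:**
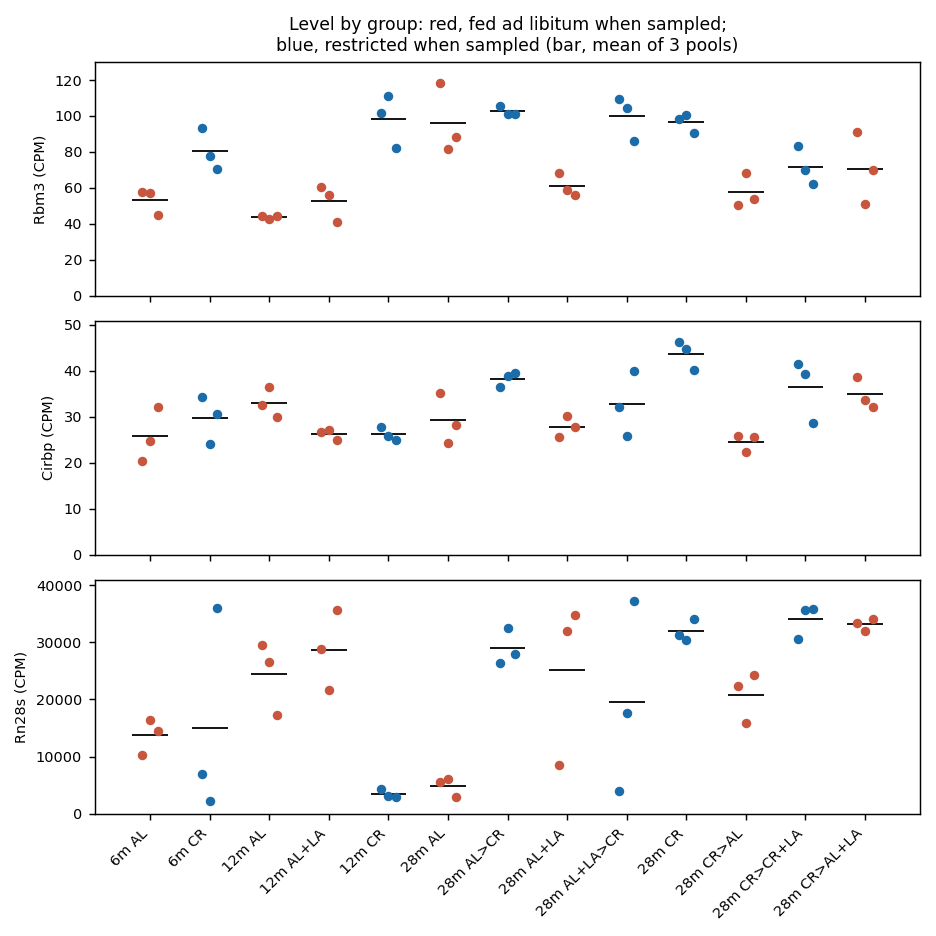
Levels of Rbm3, Cirbp and Rn28s in CPM (vertical axes, from 0) in the 13 groups (horizontal axis), with a point for each pool and a bar for the mean of 3 pools, red where the rats were fed ad libitum when sampled and blue where they were restricted. Rbm3 is at 50.6 to 68.3 CPM in CR>AL and at 81.5 to 118 CPM in 28m AL, and Rn28s is at most 6072 CPM in 12m CR and 28m AL.

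Cirbp stood at 27.9, 25.9 and 24.9 CPM in CR at 12 months and at 35.1, 24.4 and 28.2 CPM in AL at 28 months. The CR pools at 28 months, from 40.2 to 46.3 CPM, were above both, and the CR>AL pools, from 22.4 to 25.8 CPM, were near them. Unlike Rbm3, Cirbp was higher in AL at 12 months, at 29.99 to 36.59 CPM, than in CR of that age, without overlap. AL+LA at 12 months overlapped CR, as did AL at 6 months. At 28 months the direction was the opposite, with the AL pools below those of AL>CR, at 36.4 to 39.6 CPM. Gpd1 was at 82.3, 139 and 179 CPM in CR at 12 months and at 154, 207 and 192 CPM in AL at 28 months, so that its pools in AL at 28 months lay above those of CR>AL. Sars was at 60.0, 42.2 and 46.4 CPM in CR at 12 months and at 33.7, 51.0 and 39.3 CPM in AL at 28 months. Rn28s ranged from 3014 to 4318 CPM in CR at 12 months and from 2927 to 6072 CPM in AL at 28 months, far below its level in the compared groups. It also varied widely between pools of the same diet and age. The range was 2198 to 35984 CPM in CR at 6 months and 8529 to 34778 CPM in AL+LA at 28 months. In rats switched from AL+LA to restriction it was 3917 to 37197 CPM. These ranges are wider than the difference between CR and CR>AL.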

How the data were processed

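Cerebral cortex RNA of pools of 2 rats, with RNA integrity numbers above 8, was depleted of ribosomal RNA and sequenced on a SOLiD instrument. The submitters' processing notes name Bowtie, HTSeq and the rn5 genome. The values the authors deposited are raw read counts per Ensembl gene, and the last 5 lines of each file, which name no gene, were left out. The study states that reads with more than 1 mapping position were excluded, which would affect genes with near-identical copies. Rn28s, ENSRNOG00000045589 and ENSRNOG00000048154 nevertheless had nearly equal counts, at 129284, 129503 and 130262 in CR pool 16. How reads were assigned to these identifiers was not tested.

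Genes with at least 1 CPM in at least 3 of the 39 libraries were tested (17230 of 26123). Counts were scaled by TMM and compared by edgeR 4.0.16 in R 4.3.3 (glmQLFit and glmQLFTest, Benjamini-Hochberg adjustment, threshold 0.05), with the libraries of the groups compared. CPM are scaled over all 39 libraries. Standard errors are the log2 fold change over the square root of F. Names for 1669 identifiers came from the study's supplementary tables. Named genes were up to 12 per direction past the test with pools apart, at least 5 by unadjusted p where fewer than 5 passed, the leading members of each list, and genes named in the study. The members and lists were chosen with earlier results of these data known. Also run were DESeq2 1.42.0, the exact test of edgeR, RLE scaling, filters, all libraries in one fit, removal of ribosomal identifiers, and leaving out each pool. The Rn28s covariate and the contrast over 33 libraries were added after seeing the data. On simulated counts of this comparison, with 200 of 17230 genes changed by a log2 fold change of 1, 58.5% of these were recovered with 13 false calls. The 8 named genes past the test had smaller log2 fold changes, from -0.84 to -0.62, and recovery at that size was not simulated. Gene positions in the authors' build were not used here, and some results are not reported here.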

Additional observations from a re-analysis of the deposited data

Results flagged for a closer look

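The interaction of refeeding with LA passed for 4 genes, which is a difference between the groups in the effect of the same contrast. The differences of the log2 fold changes (with LA minus without) were 0.81 for Ccdc47, 0.80 for ENSRNOG00000031766, -1.71 for ENSRNOG00000049138 and -1.69 for ENSRNOG00000046170. The edgeR quasi-likelihood adjusted p was 0.0255 for each. ENSRNOG00000049138 was at 40.6, 30.7 and 37.7 CPM in CR>AL+LA and at a mean of 43.99 ± 9.34 CPM (SD, n = 3) in CR>CR+LA. Leaving out single pools left between 0 and 6 genes past this test.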

How the results depend on the processing

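No paired analysis was possible because pool numbers are unique in the series and the groups compared share none. Genes past the test between CR and CR>AL numbered 20, and 34 with edgeR's exact test, 78 without a filter on low counts, 10 with at least 10 counts in every library, 10 without Rn28s and the identifiers tied to it, 0 with all 39 libraries in one fit and 0 in that fit with Rn28s as a covariate. DESeq2 called 29 and RLE scaling 19, each sharing 19 with the 20. Without single pools the count was 3 to 36. With LA the 0 became 2 by the exact test, 34 without a filter and 0 to 4 without single pools. The interaction's 4 became 47 without a filter, 0 with all libraries and 0 to 6 without single pools. Over 33 libraries the 1095 became 7 in the set of 18 libraries and 815 to 1232 without single pools. In the set of 18 the log2 fold changes of ENSRNOG00000046170 and ENSRNOG00000049138 reversed to -0.35 and -0.28. The cause of these changes was not tested. Over 2173 values of named genes under an alternative, 112 lost and 30 gained a call and 2 reversed. In CR>AL against CR, the 20 genes kept their direction in every fit, though Rn28s is at 0.00 by construction when it is its own covariate. Depth of 3241339 to 5614861 gene reads limits genes of low level.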
